A study of Mus musculus with 2 samples.

Results

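Basal keratinocytes without Igfbp3 are cells of the lowest layer of the mouse gingival epithelium in which no transcript of Igfbp3 was counted. They were taken by a fixed rule from the 2 scRNA-seq matrices of the study. A cell had to have at least 800 detected genes, at least 1% of its transcripts from Krt5 and Krt14, at least 3 transcripts of Col17a1, transcripts of Krt76, Krt24 and Krt10 below 10% of those of Krt5 and Krt14, fewer than 5 transcripts in all of the mitotic genes Mki67, Top2a, Cenpf, Cdc20, Ccnb1 and Ube2c, fewer than 2 of H19 and none of Igfbp3. The rule found 512 of the 6165 cells with at least 800 genes, or 8.30%. The CpG ODN library gave 426 of them and the LPS library 86. Basal cells that met every other condition but had Igfbp3 numbered 819, so that the 512 cells were 38.5% of 1331 basal keratinocytes.

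Basal keratinocytes rest on the basement membrane, to which hemidesmosomes built from Col17a1, Itga6, Itgb4, Dst and Plec fasten them, and they supply the spinous cells above. Igfbp3 encodes a secreted protein that binds insulin-like growth factors. Pappa encodes a secreted protease that cleaves other binding proteins of the same family, Hpgd the enzyme that inactivates prostaglandins, Cxcl14 a chemokine of resting epithelia, and Sostdc1 a secreted antagonist of BMP and Wnt signals. These genes, with Col17a1 and Krt5, were given as markers of the cells.

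The study applied a ligand topically to the palatal gingiva of female C57BL/6J mice aged 8 to 12 weeks. One group received CpG ODN, a TLR9 ligand, and the other Porphyromonas gingivalis LPS, a TLR2/4 ligand, each as 3 µl at 1 µg/ml held under an oral appliance for 1 h. Gingiva was harvested on day 4, digested with collagenase II and then trypsin, and the cells of 4 mice per ligand were pooled into 1 library. An untreated gingiva was not analysed here, and with 1 library per ligand no difference between the ligands could be tested.

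Each value below is a count of unique molecular identifiers (UMIs), each marking 1 captured transcript. The libraries held 6219 and 2016 barcodes with 72173148 and 38656738 UMIs for CpG ODN and LPS. The cells without Igfbp3 had a median of 9402 UMIs (range 1757 to 31802) and 2521.5 genes after CpG ODN and of 17702 UMIs (6306 to 68900) and 3703 genes after LPS. Mitochondrial genes took a median of 5.53% and 6.22% of their UMIs. Since the LPS cells were the more deeply sequenced, every cell was reduced at random to 5000 UMIs before the rule was applied again and values were compared, and cells below that depth were left out. This left 433 cells without and 503 with Igfbp3 in the CpG ODN library, and 109 and 130 in the LPS library. Only 5 barcodes occurred in both libraries, and 1 of the 512 cells carried one of them.

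At equal depth the cells without Igfbp3 took a like share of the basal keratinocytes in both libraries, with overlapping counting intervals. They made up 433 of 936 basal cells after CpG ODN (46.3%, exact 95% interval 43.0 to 49.5) and 109 of 239 after LPS (45.6%, 39.2 to 52.2). On the deposited counts the shares were 39.4% (36.5 to 42.4) and 34.3% (28.4 to 40.5). The share fell as depth rose, from 56.1% and 54.0% at 3000 UMIs to 40.2% and 38.4% at 10000 UMIs per cell. A cell without Igfbp3 is therefore one in which no Igfbp3 UMI was drawn at a stated depth. Of the 433 and 109 cells of the equal-depth set, 306 (70.7%) and 58 (53.2%) also had no Igfbp3 UMI and met the rule on the deposited counts. When the basal cells with Igfbp3 were reduced to 1500 UMIs, 47.2% and 47.9% of them still showed an Igfbp3 UMI.

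Few cells lay near the limits of the rule, other than that on Igfbp3, when the deposited counts were used. On the deposited counts 166 CpG ODN cells and 21 LPS cells had 1 Igfbp3 UMI and were left outside by it. At the Col17a1 limit 30 and 3 cells had 3 UMIs and were inside, and 26 and 3 had 2 and were outside. At the H19 limit 11 and 10 cells had 1 UMI inside, and 11 and 3 had 2 outside. Cells with upper keratins at 9 to 10% of Krt5 and Krt14 numbered 18 and 2 inside, and those at 10 to 11% numbered 12 and 2 outside. The median Col17a1 count was 9 and 17 UMIs on the deposited counts, well above the limit. In the equal-depth set used for the comparisons it was 6 UMIs in both libraries, with a first quartile of 4, and so nearer the limit. With a minimum of 5 Col17a1 UMIs, 287 and 71 cells remained there, against 433 and 109.

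The markers given for the cells were read first, as a description, since the rule used Krt5 and Col17a1 and the others were chosen with these data known. Levels are UMIs per 1000000 UMIs of the summed cells (CPM) at equal depth, given for CpG ODN first and LPS second. Krt5 stood at 6361 and 6163 CPM, against 6735 and 7188 CPM in basal cells with Igfbp3. Col17a1 stood at 1239 and 1347 CPM, against 1463 and 1440 CPM. Both genes were thus at 0.847 to 0.944 of their level in basal cells with Igfbp3, and Col17a1 was 414 and 465 CPM in lower spinous cells, the keratinocytes with at least 5 UMIs of Krt76 and fewer than 3 of Krt10 that lie above the basal layer.

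Pappa, Hpgd and Cxcl14 were higher in cells without Igfbp3 than in those with it in each library, and Sostdc1 differed little. Pappa (chr4:65124174-65357509) was 316 and 426 CPM without and 174 and 195 CPM with Igfbp3, a ratio of 1.82 and 2.18. Hpgd (chr8:56294585-56321043) was 467 and 473 CPM against 229 and 178 CPM, a ratio of 2.04 and 2.65. Cxcl14 (chr13:56288643-56296551) was 229 and 229 CPM against 163 and 129 CPM, a ratio of 1.41 and 1.77. Sostdc1 (chr12:36314139-36318452) was 156 and 106 CPM against 133 and 92.3 CPM, a ratio of 1.17 and 1.15. So Sostdc1 marked basal cells of either kind, while Pappa, Hpgd and Cxcl14 also separated the basal cells without Igfbp3. In lower spinous cells all 4 were lower, with Pappa at 37.0 and 23.0 CPM and Hpgd at 133 and 91.2 CPM. These levels describe the label of basal keratinocytes without Igfbp3, with Sostdc1 as a marker of the layer. They are no check of it, since the rule and the choice of markers used these data.

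**Figure D1:**
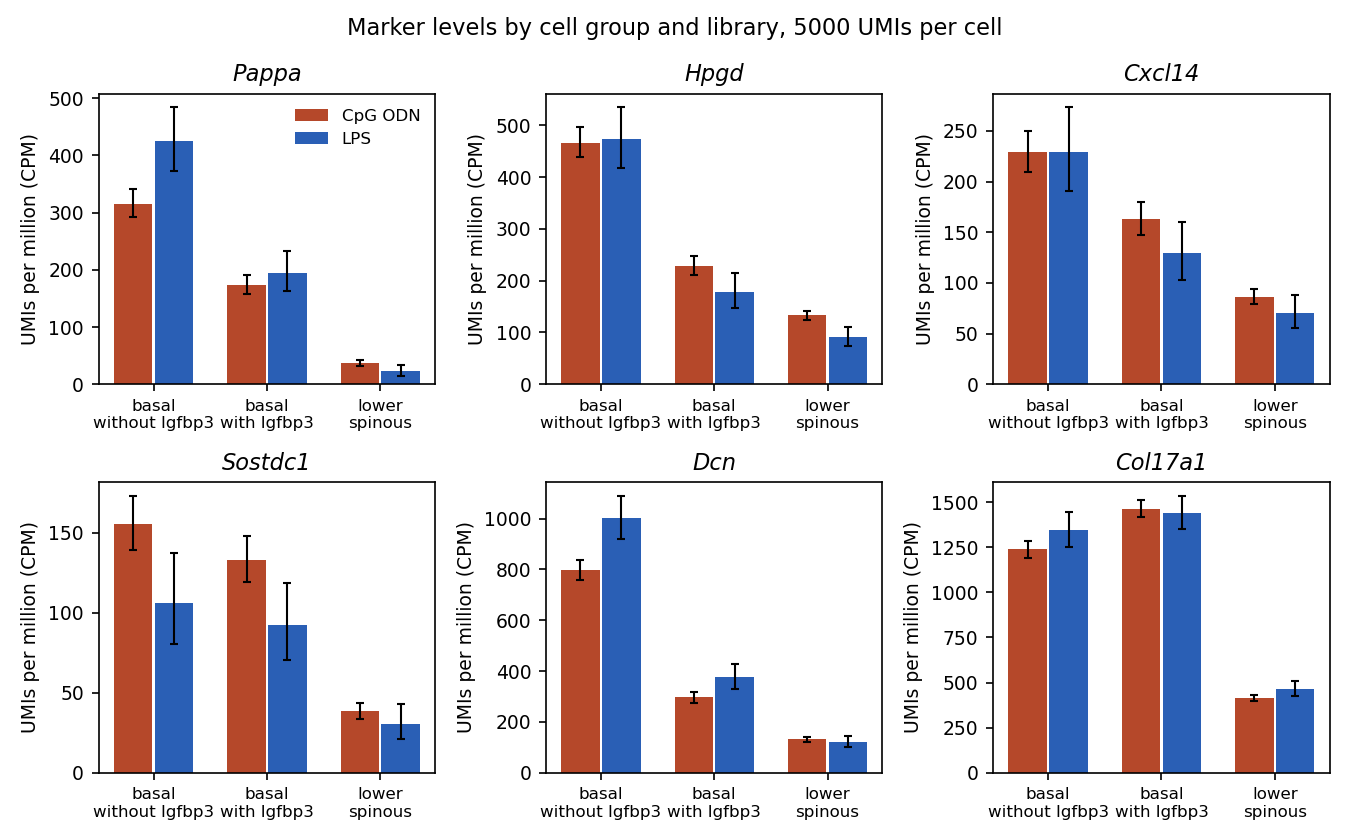
Bars give CPM of Pappa, Hpgd, Cxcl14, Sostdc1, Dcn and Col17a1 at 5000 UMIs per cell in basal keratinocytes without and with Igfbp3 and in lower spinous cells of the CpG ODN and LPS libraries, and error bars are exact 95% counting intervals. Pappa falls from 316 and 426 CPM to 37.0 and 23.0 CPM from left to right in its panel, while Col17a1 is at a like level in both basal groups.

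The markers were not detected in every cell. At 5000 UMIs, Pappa was found in 55.9% and 56.9% of the cells without Igfbp3, Hpgd in 69.3% and 63.3%, Cxcl14 in 52.4% and 45.9% and Sostdc1 in 39.95% and 33.0%. All 4 were found together in 76 CpG ODN cells (17.6%) and 13 LPS cells (11.9%), and none of them in 54 (12.5%) and 21 (19.3%). B cells, which should lack these genes, served as the measure of free RNA. Keratinocyte RNA was present in them, with Krt14 in 22.6% and 12.5% at 1500 UMIs. At 1500 UMIs per cell, none of 501 and 72 B cells (median 3102 and 3264.5 UMIs) had a UMI of Pappa, Hpgd, Cxcl14 or Sostdc1, which allows up to 0.734% and 4.99% of such cells, while 27.0% and 33.7% of the cells without Igfbp3 (median 9402 and 17702 UMIs) had Pappa and 41.3% and 44.2% had Hpgd.

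Pappa and Hpgd tended to be found in the same cells. Of the cells with a Pappa UMI, 87.2% and 83.9% also had Hpgd, against 46.6% and 36.2% of those with none. Cxcl14 was found in 64.0% and 62.9% of cells with Pappa and in 37.7% and 23.4% of the others. Sostdc1 followed the same direction, with 47.9% and 37.1% against 29.8% and 27.7%. These shares rest on 242 and 62 cells with Pappa of 1 library each and are given as a description.

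Dcn, which encodes the small proteoglycan decorin that binds collagen fibrils and growth factors, had the largest rise among the called genes with a mean of 50 CPM or more and the same direction in both libraries. Dcn (chr10:97479609-97518143) was 797 and 1002 CPM in cells without Igfbp3, 296 and 377 CPM in basal cells with it, and 131 and 121 CPM in lower spinous cells. The ratio of cells without over cells with Igfbp3 was 2.69 and 2.66, and the log2 fold change over both libraries was 1.41 (SE 0.07, adjusted p = 3.5e-84, edgeR). Decorin is best known as a product of fibroblasts, so the other fibroblast genes of the same cells were counted. On the deposited counts 244 of the 426 CpG ODN cells (57.3%) and 60 of the 86 LPS cells (69.8%) had a Dcn UMI. Of these, 239 (98.0%) and 58 (96.7%) had no UMI of Col1a1, Col1a2, Col3a1, Lum or Pdgfra.

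Dcn made up 97.0% and 99.9% of the UMIs of the 6 fibroblast genes in the cells without Igfbp3. On the deposited counts these genes summed to 768 and 1178 CPM, against 325 and 332 CPM in basal cells with Igfbp3, and Pdgfra was at 0 in both libraries. B cells at 1500 UMIs showed Dcn in 1.20% and 0%, and cells without Igfbp3 in 40.8% and 54.7%. Dcn went with Pappa, being found in 72.7% and 77.4% of cells with Pappa against 31.9% and 38.3% of those without. Among the cells without Igfbp3 it was uneven, at 0 in 45.3% and 39.4% of them, with a highest count of 44 and 27 UMIs, and the 10% of cells with most Dcn held 50.7% and 41.0% of its UMIs.

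The basal cells were then set out by their number of Igfbp3 UMIs, from 0 through 1, 2, 3 to 5, and 6 or more. Pappa in the CpG ODN library was 316, 262, 194, 114 and 59.6 CPM in this order, and in the LPS library 426, 329, 191, 100 and 103 CPM. Hpgd was 467, 315, 259, 179 and 95.7 CPM and 473, 333, 218, 64.7 and 41.4 CPM. Dcn was 797, 478, 305, 205 and 55.3 CPM and 1002, 556, 318, 388 and 131 CPM. All of these were highest at 0 and lowest, or within 4 CPM of the lowest, at 6 or more. Krt17, a keratin of stressed and appendage epithelium, ran the other way, at 673, 824, 931, 1454 and 2770 CPM and 758, 529, 1564, 1324 and 2366 CPM. Hspb1, a small heat shock protein of differentiating keratinocytes, was 964, 1218, 1550, 1735 and 2583 CPM and 870, 1004, 1491, 2035 and 1917 CPM. Wnt4, a Wnt ligand of basal keratinocytes, was 230, 291, 301, 424 and 602 CPM and 257, 369, 336, 441 and 676 CPM. In the CpG ODN library each of these genes thus changed in 1 direction at every step, not only between 0 and 1 UMI. In the LPS library only Hpgd did so, and Krt17 fell from 758 to 529 CPM between 0 and 1 UMI. The steps held 433, 181, 105, 123 and 94 cells and 109, 45, 22, 34 and 29 cells.

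**Figure D2:**
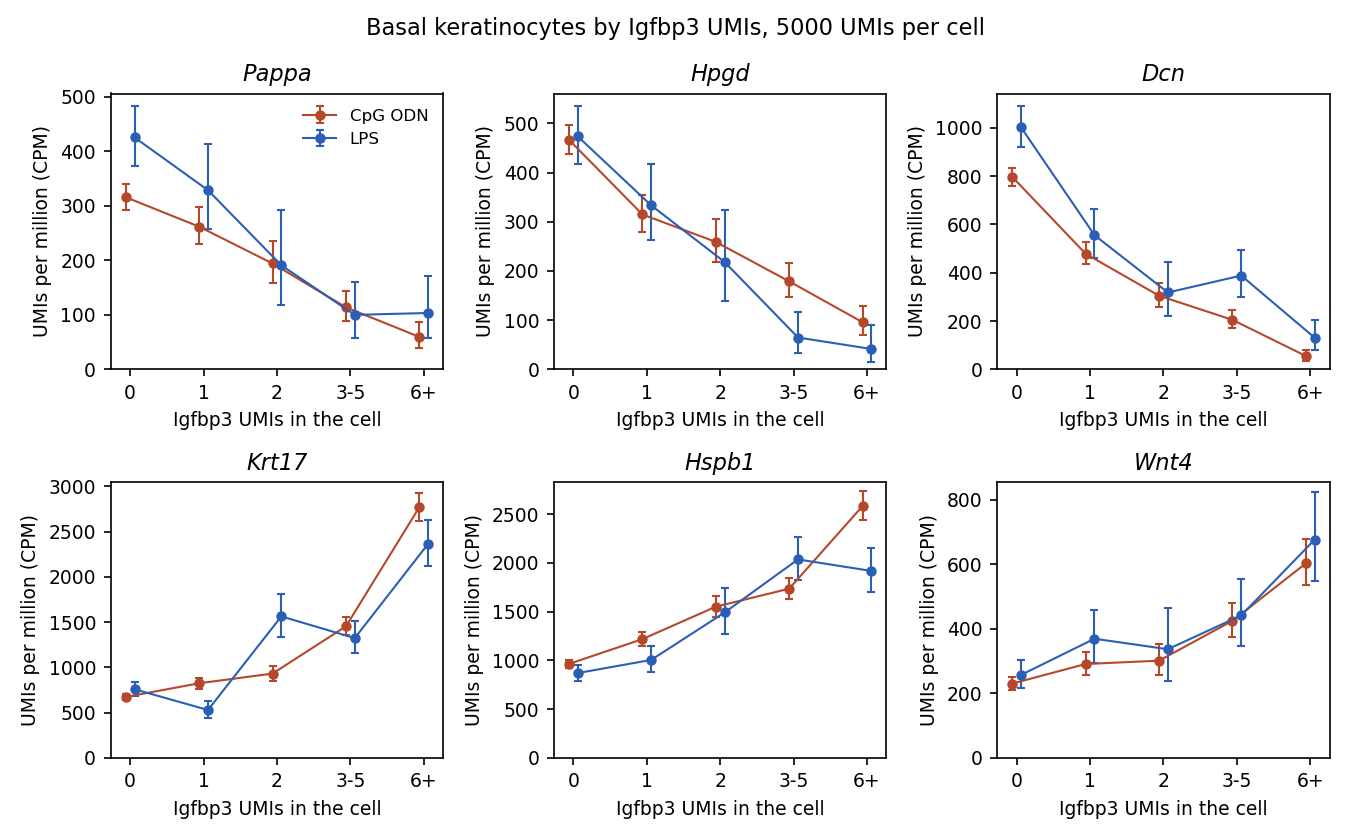
Points give CPM of Pappa, Hpgd, Dcn, Krt17, Hspb1 and Wnt4 in basal keratinocytes grouped by their Igfbp3 UMIs at 5000 UMIs per cell, by library, with exact 95% counting intervals. Pappa, Hpgd and Dcn are highest at 0 Igfbp3 UMIs and Krt17, Hspb1 and Wnt4 highest or near their highest at 6 or more.

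Cells without and with Igfbp3 were compared gene by gene on counts summed per library and cell group, with the library as a block, by the quasi-likelihood test of edgeR. Of 8422 genes tested, 117 passed an adjusted p of 0.05 (1.39%). Of these, 39 were higher without Igfbp3 (0.463%) and 78 lower (0.926%), and 36 and 78 had the same direction in both libraries. The 39 include Pappa, Hpgd and Cxcl14 and the 78 include Igfbp3 and 3 other genes of the rule, which are no findings. The fit has 4 sums and 1 residual degree of freedom, so it leans on a spread shared by all genes. With another random reduction to 5000 UMIs 68 genes passed, 51 of them among the 117, and DESeq2 called 19, all among the 117. Of the 14 alternatives computed, a minimum of 1200 detected genes kept the same cells and could change no call. Of the 117 genes, 9 passed in all 14. These are the given markers Hpgd and Pappa, which were higher, and Krt17, Hspb1, Dmkn, Wnt4, Ly6a, Slc6a6 and Tagln2, which were lower. Dcn passed in 13 of the 14, the exception being the one that left out cells with 3 or more UMIs of fibroblast genes, Dcn among them (log2 fold change 0.63).

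Among genes lower in cells without Igfbp3, Krt17 was 673 and 758 CPM without and 1364 and 1322 CPM with it. Its log2 fold change was -0.95 (SE 0.06, adjusted p = 3.72e-52). Hspb1 was 964 and 870 CPM against 1669 and 1560 CPM (log2 fold change -0.82, SE 0.06, adjusted p = 3.98e-43). In both genes each library gave nearly the same ratio, 0.493 and 0.573 for Krt17 and 0.577 and 0.558 for Hspb1. Wnt4 was 230 and 257 CPM against 384 and 451 CPM (log2 fold change -0.77, SE 0.09, adjusted p = 3.11e-16). The other 4 genes that passed in every alternative were named after their values were seen. Dmkn, a secreted protein of differentiating epidermis, was 753 and 628 CPM against 1144 and 1014 CPM (adjusted p = 1.04e-21). Ly6a, the membrane protein Sca-1, was 213 and 191 CPM against 349 and 338 CPM (adjusted p = 1.4e-13). Slc6a6, the taurine transporter, and Tagln2, an actin-binding protein, had log2 fold changes of -0.57 and -0.48.

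Of the 4 stress keratins tested, Krt6a, Krt16 and Krt17 were lower in cells without Igfbp3 and Krt6b was not called (median log2 fold change of the 4, -0.76, against 0.01 over all genes). Krt6a was 1857 and 1422 CPM against 2924 and 2703 CPM (log2 fold change -0.76, adjusted p = 1.19e-46), and Krt16 was 194 and 130.3 CPM against 313 and 252 CPM (log2 fold change -0.76, adjusted p = 3e-12). Without thinning Krt16 turned to 0.99. Krt6a was called in 13 of the 14 alternatives, with log2 fold changes from -1.08 to -0.0449 among them. Krt6a was uneven among the cells without Igfbp3, with a median of 5 and 4 UMIs per cell, a highest count of 79 and 70, and 41.6% and 49.2% of its UMIs in the 10% of cells with most of it. For Krt17 the median was 1 and 0 UMIs, the highest count 81 and 84, and the 10% of cells with most of it held 72.6% and 80.1%.

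Genes of spinous and cornified cells changed in both directions, with 2 of 12 tested higher and 3 lower (median log2 fold change -0.20). Krtdap, a secreted protein of differentiating keratinocytes, was 52.2 and 69.7 CPM without and 146 and 134 CPM with Igfbp3 (log2 fold change -1.35, adjusted p = 6.27e-18), but 0.62 without thinning. Calm4, a calcium-binding protein of differentiating epidermis, was 59.1 and 42.2 CPM against 117 and 126 CPM (log2 fold change -1.13, adjusted p = 3.88e-11), but 0.01 without thinning. The third was the desmosomal cadherin Dsg1a, at 76.2 and 60.6 CPM against 122 and 131 CPM (log2 fold change -0.79, adjusted p = 3.4e-06). The 2 that were higher are keratins of non-cornified oral epithelium. Krt13 was 285 and 484 CPM against 177 and 286 CPM (log2 fold change 0.70, adjusted p = 1.91e-12). Over the steps of Igfbp3 UMIs it fell from 285 to 111 CPM in the CpG ODN library. In the LPS library it was 484, 209, 200, 235 and 531 CPM, highest at 6 or more. In the cells without Igfbp3, 67.4% and 63.3% had no Krt13 UMI, and 10.2% and 25% of its UMIs came from 1 cell. Krt4 was 27.7 and 136 CPM against 11.9 and 80.0 CPM (log2 fold change 0.95, adjusted p = 0.00175), but -0.0805 at 10000 UMIs per cell, and 64.9% of its UMIs in the LPS cells came from 1 cell.

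Metallothioneins, which bind zinc and copper, were called higher for 3 of 4 genes tested by edgeR (median log2 fold change 0.31) and for 0 by DESeq2. Over all genes edgeR called 0.463% higher. Mt1 was 2795 and 2222 CPM against 2165 and 1958 CPM, Mt2 was 1844 and 1565 CPM against 1404 and 1334 CPM, and Mt3 was 50.8 and 45.9 CPM against 12.3 and 36.9 CPM. Their log2 fold changes were 0.29, 0.33 and 1.46, and their adjusted p were 1.8e-06, 3.43e-07 and 5.06e-07. The fourth, Mt4, was 683 and 607 CPM against 598 and 660.0 CPM and was not called. In the LPS cells without Igfbp3, 36% of the Mt3 UMIs came from 1 cell. Against lower spinous cells Mt1, Mt2 and Mt4 were called lower. Slc7a5 and Psat1 were also among the genes with the largest rises. Slc7a5, a transporter of large neutral amino acids, was 147 and 150.5 CPM against 95.4 and 78.5 CPM (log2 fold change 0.69, adjusted p = 1.02e-05), and Psat1, an enzyme of serine synthesis, was 174 and 176 CPM against 109 and 122 CPM (log2 fold change 0.62, adjusted p = 2.03e-05).

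**Figure D3:**
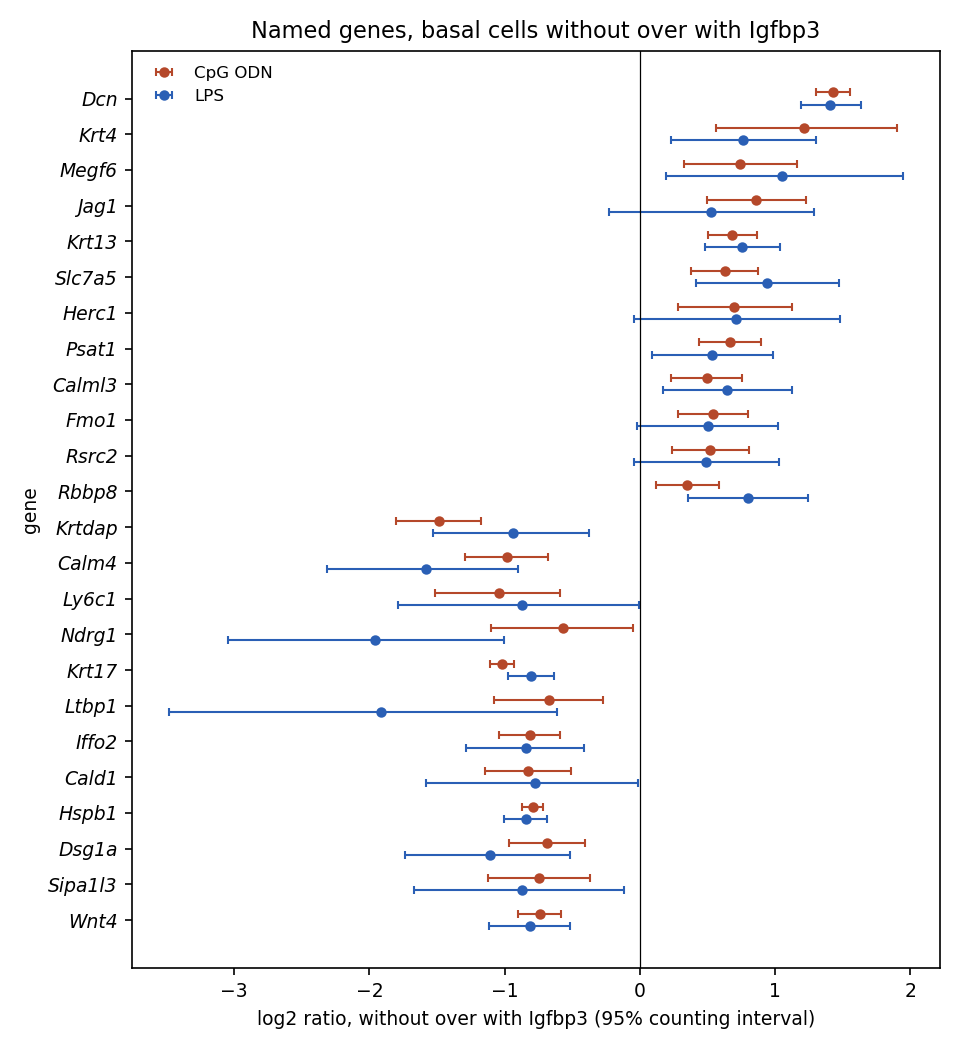
Points give the log2 ratio of basal keratinocytes without over with Igfbp3 at 5000 UMIs per cell for the 24 genes with the largest called changes, in each library, and bars are 95% counting intervals. Dcn lies farthest to the right with the CpG ODN and LPS libraries side by side, and Krt17, Hspb1 and Wnt4 have narrow intervals below 0 in both.

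Signalling genes showed single members that differed. In the IGF list, 1 of 9 tested genes was called, Pappa itself. The binding protein Igfbp2 was 1506 and 1400 CPM against 1598 and 1657 CPM, Igfbp7 was 128 and 182 CPM against 138 and 192 CPM, and the receptor Igf1r was 86.8 and 101 CPM against 105 and 100 CPM, none of them called. Of 29 Wnt genes, the receptor Lgr6 was higher at 25.4 and 33.0 CPM against 11.5 and 9.23 CPM (log2 fold change 1.29, adjusted p = 0.00725), and the ligands Wnt4 and Wnt7b were lower. Wnt7b was 5.08 and 3.67 CPM against 14.3 and 27.7 CPM (adjusted p = 0.00343). Of 11 Notch genes, the ligand Jag1 was higher at 75.8 and 64.2 CPM against 41.7 and 44.6 CPM (log2 fold change 0.77, adjusted p = 0.00317), and Jag2 was 131 and 156 CPM against 136 and 155 CPM. Of 17 BMP and TGF-beta genes, the ligand Bmp2 and the latent TGF-beta binding protein Ltbp1 were lower (adjusted p = 0.00267 and 0.00479). Bmp2 was 20.8 and 11 CPM against 35.0 and 55.4 CPM. The median log2 fold changes of the IGF, Wnt, Notch, and BMP and TGF-beta lists were -0.15, 0.05, 0.03 and -0.06.

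The prostaglandin genes held Hpgd and 1 more call among 9 tested. Ptgs2, the inducible cyclooxygenase that starts prostaglandin synthesis, was 0.462 and 0 CPM in cells without Igfbp3, from 1 UMI in all, against 8.75 and 9.23 CPM in cells with it (adjusted p = 4.72e-05). Hpgd was among the given markers and is no finding. Ptgs2 lay at a very low level, passed in 9 of the 14 alternatives and was not called by DESeq2. The other 7 genes tested were not called. Of the 15 progenitor genes tested (median log2 fold change 0.05), Lgr6, Dcn and Ifitm3 were higher and Krt15, a keratin of basal cells, was lower. Ifitm3 was 378 and 371 CPM against 279 and 295 CPM (log2 fold change 0.40, adjusted p = 0.000402). Krt15 was 1165 and 925 CPM against 1325 and 1622 CPM (log2 fold change -0.41, adjusted p = 9.9e-11).

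Genes of the structures that hold the cells to the basement membrane lay slightly lower in cells without Igfbp3, with no single gene called. None of 5 hemidesmosome genes, 12 basement membrane genes or 6 integrin genes passed by edgeR or by DESeq2, at median log2 fold changes of -0.22, -0.27 and -0.30. At an unadjusted p under 0.05 there were 2, 4 and 2, all lower, while 4.49% of all genes tested were lower at that level. Itgb4 was 363 and 379.8 CPM against 360.2 and 389 CPM, and Dst was 1025 and 982 CPM against 1070 and 988 CPM. Of the basal transcription factors, Klf5 was called lower and 16 others were not called. Trp63, the master regulator of stratified epithelium, was 264 and 288 CPM against 271 and 272 CPM. Of 16 DNA replication genes none was called by edgeR or DESeq2 and 1 had an unadjusted p under 0.05, and of 13 G1 regulators 1 was called, cyclin Ccnd2. Ccnd2 was 467 and 528 CPM against 369.8 and 380.0 CPM (log2 fold change 0.37, adjusted p = 0.000177). None of 14 TLR and signalling genes, 8 EGF receptor genes or 5 antigen presentation genes was called by edgeR or DESeq2, and 0, 1 and 1 of them had an unadjusted p under 0.05. With 1.39% of all genes called and 8.3% at an unadjusted p under 0.05, counts of 0 or 1 in lists of this size are no result about the lists.

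The cells without Igfbp3 differed far more from lower spinous cells. Of 8596 genes tested, 1961 passed (22.8%), 988 higher (11.5%) and 973 lower (11.3%) in the basal cells. The comparison used 1228 and 217 lower spinous cells at equal depth. These cells had met the same limits on detected genes, Krt5 and Krt14, the mitotic genes and H19. The rule for the basal cells used Col17a1, Krt5, Krt14 and the upper keratins, so these genes are no findings here and genes that go with them were favoured. Without the library block 1262 genes passed, by DESeq2 264, and 856 when cells with markers of other cell types were left out.

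Genes that anchor the basal layer were higher. Of 5 hemidesmosome genes 4 were higher, of 11 basement membrane genes 7, and of 6 integrin genes 3 with 1 lower (median log2 fold changes 0.98, 1.07 and 0.67, against 0.01 over all genes). None of the first 2 lists had a lower gene at an unadjusted p under 0.05 or by DESeq2. Itgb4 was 363 and 379.8 CPM against 129 and 119 CPM (log2 fold change 1.45, adjusted p = 3.16e-32), and Lamb3, a chain of laminin-332, was 161 and 200 CPM against 49.8 and 53.5 CPM (log2 fold change 1.65, adjusted p = 2.16e-26). The largest rises included Tnc, Sparc and Fst. Tnc, the matrix protein tenascin-C, was 80.8 and 88.1 CPM against 10.9 and 9.22 CPM (log2 fold change 2.85, adjusted p = 1.22e-30). Sparc, a collagen-binding matrix protein, was 369 and 339 CPM against 67.6 and 68.2 CPM (log2 fold change 2.33, adjusted p = 5.83e-50). Fst, the activin antagonist follistatin, was 113 and 114 CPM against 18.1 and 15.7 CPM (log2 fold change 2.59, adjusted p = 4.68e-32). Each of these genes was at a like level in basal cells with Igfbp3, with Tnc at 64.0 and 87.7 CPM, Sparc at 340.0 and 335 CPM and Fst at 99.0 and 102 CPM, and none was called between the 2 basal groups.

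Of the Wnt genes 14 of 29 were higher and 2 lower than in lower spinous cells, and of the progenitor genes 11 of 15 were higher and 2 lower (median log2 fold changes 0.72 and 0.97). Over all genes 11.5% were higher and 11.3% lower. By DESeq2 4 Wnt genes were higher and 0 lower, and 7 progenitor genes were higher and 1 lower. The 14 include the given marker Sostdc1, which is no finding. The 2 lower progenitor genes were Cd44 and Krt15, the keratin of basal cells. Wnt10a was 141 and 198 CPM against 54.9 and 81.1 CPM (log2 fold change 1.25, adjusted p = 3.63e-18). Wnt4 was not called, at 230 and 257 CPM against 220.4 and 232 CPM (log2 fold change -0.00, SE 0.09). The Notch ligands Jag2 and Dlk2 were higher, Jag2 at 131 and 156 CPM against 35.7 and 21.2 CPM (adjusted p = 1.8e-26) and Dlk2 at 65.6 and 60.6 CPM against 7.65 and 12.9 CPM (adjusted p = 2.51e-26), and the receptor Notch3 was lower, at 6.00 and 7.34 CPM against 36.8 and 48.8 CPM (adjusted p = 2.72e-16). Of 15 DNA replication genes 11 were higher and none lower (1 higher and 0 lower by DESeq2, 12 and 0 at an unadjusted p under 0.05). Cells with 5 or more UMIs of the mitotic genes had been left out of both groups. Mcm5, Mcm2 and Mcm6, subunits of the replicative helicase, were all below 30 CPM, with log2 fold changes of 1.52, 1.26 and 1.02. Ccnd2 was 467 and 528 CPM against 101 and 92.2 CPM (log2 fold change 2.20, adjusted p = 2.05e-51).

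Differentiation genes were lower. All 4 stress keratins and 14 of 15 spinous and cornified genes were lower, at median log2 fold changes of -2.95 and -2.17. By DESeq2 all 4 and 10 of the 15 were lower and none was higher, while Krt4 was higher at an unadjusted p under 0.05. Krt16 was 194 and 130.3 CPM against 2175 and 2268 CPM (log2 fold change -3.73, adjusted p = 2.08e-98), and Mt4 was 683 and 607 CPM against 6986 and 6561 CPM (log2 fold change -3.47, adjusted p = 1.37e-122). Fabp5, the fatty acid binding protein of keratinocytes, was 1146 and 1090 CPM against 10575 and 10657 CPM (log2 fold change -3.33, adjusted p = 8.47e-129). Selenbp1, a selenium-binding protein, was 32.3 and 38.5 CPM against 907 and 1203 CPM (log2 fold change -4.94, adjusted p = 1.39e-89). Transcription factors of the upper layers were lower for 9 of 12 and higher for 1, and by DESeq2 lower for 3 and higher for 0. Maf was 217 and 215 CPM against 406 and 436 CPM (log2 fold change -1.03, adjusted p = 2.86e-22). Basal transcription factors were mixed (median log2 fold change 0.12). Of 16 tested, 6 were higher and 3, Pitx1, Foxe1 and Klf5, lower, and by DESeq2 1 was higher and 1 lower. Some cells without Igfbp3 nevertheless carried transcripts of differentiation genes, since Mt4 was at 0 in 46.0% and 50.5% of these cells and reached 51 and 64 UMIs in single cells.

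**Figure D4:**
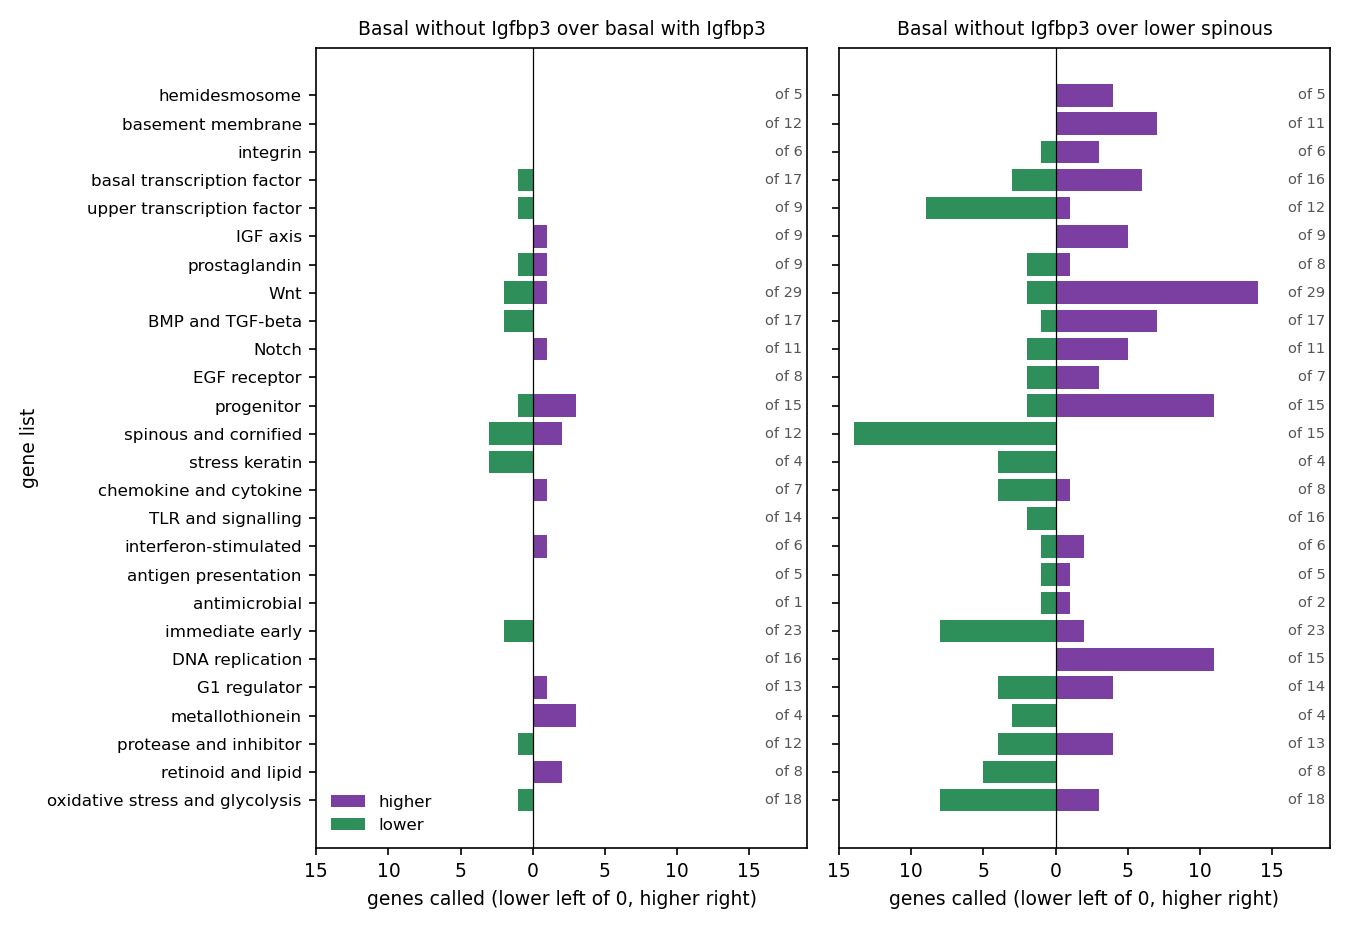
Bars count the genes of each list called higher (right) or lower (left) in basal keratinocytes without Igfbp3 than in basal cells with it (left panel) and than in lower spinous cells (right panel), with the number tested at the edge. Against cells with Igfbp3 no list has more than 3 genes called in 1 direction, and against lower spinous cells the spinous and cornified list has 14 of 15 lower.

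Between the ligands, 12 of the 2504 genes at 50 CPM or more in 1 library differed by 2-fold or more in the cells without Igfbp3 at equal depth (0.479%), 3 higher after CpG ODN (0.12%) and 9 higher after LPS (0.359%). Neither the genes nor the split held in other draws of the same cells. Another random reduction to 5000 UMIs gave 14 genes, 11 higher after CpG ODN and 3 higher after LPS, of which 4 were among the 12. At 10000 UMIs there were 18, split 13 and 5 with 2 of the 12, at 3000 UMIs 54, split 28 and 26 with 3 of the 12, and without thinning 16, split 1 and 15 with 4 of the 12. These compare 1 library with 1 library and were not tested, and the intervals cover counting error only. Pappa was higher after LPS, with a CpG ODN over LPS ratio of 0.742 (0.639 to 0.865), as was Dcn with 0.795 (0.722 to 0.877). Hpgd gave 0.985 (0.859 to 1.13) and Cxcl14 0.999 (0.819 to 1.23). Sostdc1 was higher after CpG ODN at 1.46 (1.1 to 1.97), but lower at 10000 UMIs per cell (0.692). The median log2 ratio of 132 listed genes was -0.03 and that of all 2504 genes was -0.00.

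Of the 12 genes, Icam1, Lars2, Slc4a2, Akirin1 and Tuba1b kept their direction in every alternative computed for them. Icam1, an adhesion molecule for leukocytes that inflammatory signals induce, was 82.7 CPM after CpG ODN and 187 CPM after LPS, a ratio of 0.442 (0.345 to 0.569), and 0.593 with another random reduction. In basal cells with Igfbp3 it was 85.1 and 86.2 CPM, a ratio of 0.988. Lars2, a mitochondrial leucyl-tRNA synthetase, was 93.3 and 248 CPM, a ratio of 0.377 (0.301 to 0.472), and its ratio in basal cells with Igfbp3 was 0.374.

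Other genes turned in direction. Krt4 was 27.7 and 136 CPM, a ratio of 0.204 that turned to 1.56 at 10000 UMIs per cell. Sfxn1, a mitochondrial serine transporter, was 61.4 and 29.4 CPM, a ratio of 2.09 (1.24 to 3.77) that turned to 0.745 at 3000 UMIs. Slc4a2, Sesn3, Akirin1, Cdo1, Tuba1b and Hist1h2ap gave ratios between 0.328 and 0.459. Of these, Sesn3 turned to 1.04 at 3000 UMIs and Hist1h2ap to 1.47 at 10000 UMIs and 1.15 without thinning. Cdo1 turned to 1.25 and 1.71 without cells holding markers of other cells, with and without Dcn among the markers, and to 1.06 without its top cell. In the LPS cells 76.5% of the Cdo1 UMIs and 45.5% of the Hist1h2ap UMIs were in 1 cell each. BC037156, a long non-coding RNA, had a ratio of 4.32 with 95.2% of its CpG ODN UMIs in 1 cell, and turned to 0.829 at 10000 UMIs, 0.0751 without thinning and 0.700 without its top cell. The last was the hemoglobin gene Hbb-bs, at 224 and 36.7 CPM, a ratio of 6.09 (3.9 to 10.1), with 61.6% of its CpG ODN UMIs in 1 cell.

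**Figure D5:**
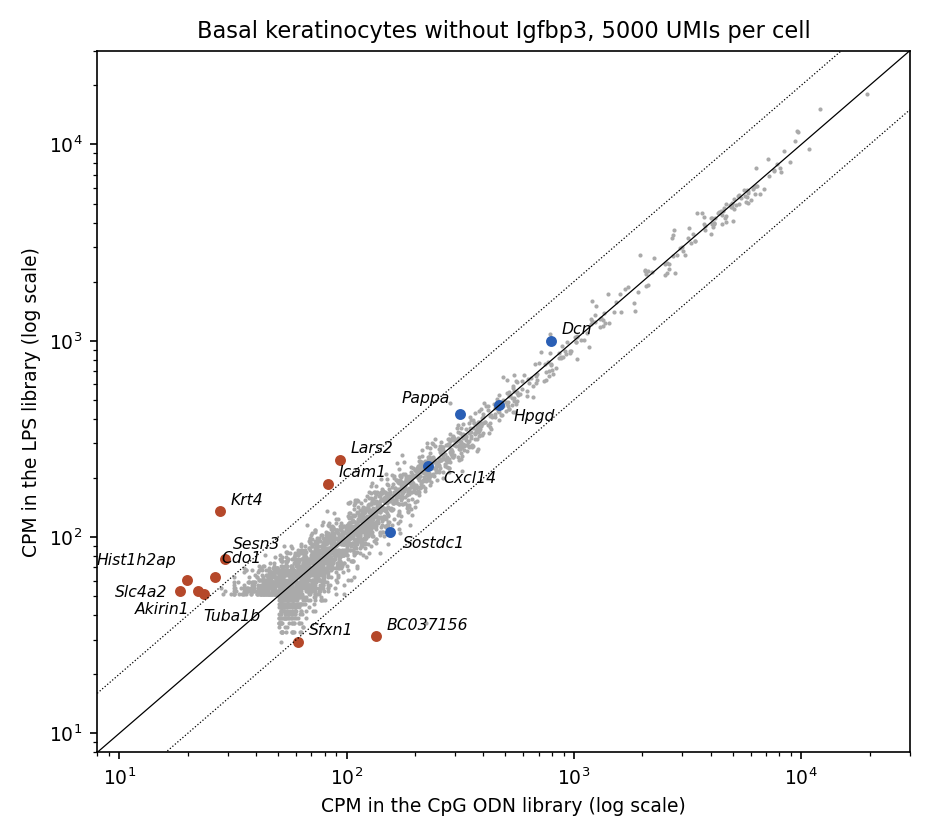
Each point is a gene at 50 CPM or more in 1 library, with its CPM in basal keratinocytes without Igfbp3 of the CpG ODN library (x, log scale) and of the LPS library (y, log scale), and the dotted lines mark 2-fold. Blue points are Dcn and markers and red points are named genes past 2-fold, and nearly all of the 2504 genes lie between the lines.

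The receptors of the ligands were at or near the detection limit in these cells. Tlr9 had 0 UMIs in both libraries, Tlr2 had 2 and 2, and Tlr4 had 6 and 0 UMIs, among 2165000 and 545000 UMIs in all. Of the 25 TLR and signalling genes, 4 reached 50 CPM and all 4 had ratios below 1 and within 2-fold. The adaptor Myd88 was 11.1 and 14.7 CPM. Of the chemokine and cytokine list, Cxcl14 and 1 other gene reached 50 CPM, and Il1a, Il34, Tslp, Csf2 and Csf3 were among 9 genes with no UMI.

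Markers of other cells were low in the cells without Igfbp3 apart from Dcn, hemoglobin and, in 1 LPS cell, Odam. On the deposited counts the endothelial genes Cdh5, Kdr, Vwf and Emcn were at 0, the 5 melanocyte genes summed to 0.239 and 0.606 CPM, the 5 B cell genes to 8.14 and 1.21 CPM and the 8 myeloid genes to 9.33 and 2.42 CPM. The T cell list summed to 53.8 and 52.7 CPM, of which Trbc2 gave 96.0% and 85.1%. The gland list summed to 17.5 and 253 CPM, with 90.9% of the latter from Odam and a highest cell of 380 UMIs, and to 22.2 and 27.5 CPM at equal depth. The red cell list, led by Hbb-bs, summed to 89.0 and 61.8 CPM on the deposited counts. At equal depth, the set used for the comparisons, it was 331 and 60.6 CPM in cells without Igfbp3, 196 and 83.1 CPM in basal cells with it and 687 and 926 CPM in lower spinous cells. Hba-a1, at 46.2 and 3.67 CPM against 19.9 and 4.62 CPM, was called higher in cells without Igfbp3 (log2 fold change 1.13, adjusted p = 0.00479), with 57% of its CpG ODN UMIs in 1 cell and calls in 7 of the 14 alternatives. The part of these transcripts in the differences between the groups was not tested one by one. An alternative added after the data were seen left out cells with 3 or more UMIs of some of these lists, Dcn not counted. The lists used were fibroblast, endothelial, mural, B cell, T cell, myeloid and melanocyte, so cells with hemoglobin or Odam stayed in. In it 92 genes passed between cells without and with Igfbp3 and 1755 against lower spinous cells.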

How the data were processed

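The authors made 1 10x Genomics 3′ library per ligand from the pooled gingival cells of 4 mice and deposited 1 matrix of UMI counts each, made with Cell Ranger 4.0.0 per the file headers. The submitters' processing notes also name Seurat. The genome build is not given in the sources used here. Gene positions in the text were looked up by Ensembl identifier in GENCODE M21, built on GRCm38, where 32235 of 32285 identifiers matched. No doublet caller was run. The members and the gene lists were chosen with earlier results of these data known.

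Cells were reduced to 5000 UMIs by sampling without replacement (numpy 2.4.6, Python 3.11.15, seed 1), gated, and summed per library and cell group. The 4 sums were fitted with edgeR 4.0.16 in R 4.3.3 (TMM normalisation, filterByExpr, library as block, quasi-likelihood test, Benjamini-Hochberg adjustment over all genes tested), and a gene was called at an adjusted p under 0.05. SE is the size of the log2 fold change before shrinkage, divided by the square root of the test's F statistic. The log2 fold changes printed beside it are those after shrinkage. With 2 pairs of sums, the spread behind the p-values was shared over genes. The prior degrees of freedom were infinite for cells with Igfbp3 and 148.8 for lower spinous cells, against 1 residual degree of freedom. A gene's own spread between the 2 libraries thus added little or nothing to its p-value. Counts were also simulated with 200 genes changed 2-fold and a dispersion of 0.01, above the 0.00118 and 0.00113 estimated from the data. The fit recovered 146 for cells without against with Igfbp3 (8369 genes run) and 137 for lower spinous cells (8382 genes run), with 6 and 7 false calls. Every simulated gene had the same dispersion, and the libraries differed only in size. The simulation therefore cannot show how the fit treats a spread that differs between genes. CpG ODN and LPS were compared by CPM ratios with exact 95% intervals (scipy 1.17.1), which cover counting error only. Shares have exact Clopper-Pearson intervals.

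Named genes were the markers and the genes of the rule, of each list the 4 with the highest CPM and those called, the 12 called genes with the largest fold in each direction at 50 CPM or more and with the same direction in both libraries, the genes past 2-fold between ligands at 50 CPM or more in 1 library, up to 12 in each direction, and the 15 most variable genes by Pearson residuals. Mitochondrial, ribosomal, hemoglobin, immunoglobulin, Xist and predicted genes were left out of the last 3 kinds. Alternatives covered depth, seed, gates, filters, DESeq2 1.42.0, DESeq2 size factors in edgeR and a fit with no block.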

Additional observations from a re-analysis of the deposited data

Results flagged for a closer look

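The genes here moved in opposite directions in 2 groups of cells, with counting intervals on either side of 1. With 1 library per ligand the difference was not tested. BC037156 had a CpG ODN over LPS ratio of 4.32 in basal cells without Igfbp3 and of 0.11 in basal cells with it. Its ratio of cells without over with Igfbp3 was 9.17 in the CpG ODN library and 0.233 in the LPS library. In the cells without Igfbp3, 1 cell held 95.2% of its UMIs after CpG ODN and 1 cell 70.6% after LPS. Krt15 had a CpG ODN over LPS ratio of 1.26 (1.14 to 1.39) without and 0.817 with Igfbp3. Atf3, a stress-induced transcription factor, had a ratio of 0.773 (0.649 to 0.923) without and 1.18 with Igfbp3, and 69.1% and 66.1% of the cells without Igfbp3 had no Atf3 UMI.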

How the results depend on the processing

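No paired analysis was possible because the labels number no replicates and hold 1 library per ligand. Between cell groups the library was the block. Leaving out a library would leave 1 pair of sums and no residual degrees of freedom, and each value is given per library instead. The share of basal cells without Igfbp3 moved from 46.3% and 45.6% to 56.1% and 54.0% at 3000 UMIs, 40.2% and 38.4% at 10000, 39.4% and 34.3% with no thinning, 38.3% and 38.6% without barcodes holding 3 or more UMIs of other cell markers, 65.6% and 64.4% with 1 Igfbp3 UMI counted as none, and 42.0% in the CpG ODN library with at least 5 Col17a1 UMIs. Genes called between cells without and with Igfbp3 numbered 76 at 3000 UMIs (23 higher, 53 lower), 51 without other cell markers (22 and 29), 68 with another seed (19 and 49), 19 by DESeq2 (4 and 15) and 35 with no library block (9 and 26), against 117. Against lower spinous cells 856, 264 and 1262 genes passed without other cell markers, by DESeq2 and with no library block, against 1961, and with no filter on low counts 777 of 1946 were higher (39.9%), against 50.4%. Genes past 2-fold between ligands numbered 54 at 3000 UMIs, 45 with at least 5 Col17a1 UMIs, 168 without other cell markers and 194 at 20 CPM, against 12, and the median log2 ratio of listed genes was -0.14 with no thinning, 0.0498 without other cell markers and 0.0463 without the top cell.

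Directions turned as follows. Between cells without and with Igfbp3, Krt4 gave -0.0805 and Megf6 -0.0483 (log2) at 10000 UMIs, Herc1 -0.0840 at 3000, and Krtdap 0.62, Calm4 0.0101 and Krt16 0.99 with no thinning. Against lower spinous cells, Igfbp2 gave -0.0415 without other cell markers, Krtdap 0.14 with no thinning, and Lor 0.59 with no thinning, 0.43 with another seed and 0.28 without other cell markers except Dcn. Between ligands, BC037156 gave 0.829 at 10000 UMIs, 0.0751 with no thinning and 0.700 without the top cell, Sfxn1 0.745 and Sesn3 1.04 at 3000 UMIs, Krt4 1.56 and Sostdc1 0.692 at 10000, Hist1h2ap 1.47 at 10000 and 1.15 with no thinning, Cdo1 1.25 and 1.71 without other cell markers with and without Dcn among them and 1.06 without the top cell, and Col17a1 1.07 with no thinning. The cause was not tested. Of all values of named genes under the alternatives, 491 of 691 between basal groups and 1978 of 2296 against lower spinous cells kept direction and call, and 142 of 204 ratios between ligands kept direction and stayed within their counting interval.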

Other observations

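Of lists not described above, immediate early genes were not called higher in basal cells without Igfbp3 than in those with it. Of 23 tested, Jund (537 and 587 CPM against 657 and 686 CPM for CpG ODN and LPS) and Klf6 (232 and 237 CPM against 295 and 286 CPM) were lower by edgeR (adjusted p = 0.00502 and 0.0227), 0 passed by DESeq2, and 8 were lower and 0 higher at an unadjusted p under 0.05. These genes respond within minutes to tissue handling as well as to signals in the tissue. Over all genes tested 0.463% were called higher and 0.926% lower in this comparison, and 4.49% were lower at an unadjusted p under 0.05. Against lower spinous cells, where 11.5% of all genes were called higher and 11.3% lower, 2 of the 23 were higher and 8 lower. Fos, Jun and Atf3 varied strongly among the cells without Igfbp3, with Fos at 0 in 28.6% and 37.6% of them and at up to 40 and 46 UMIs in single cells. Of 8 retinoid and lipid genes, Fabp5 and Adh7, a retinol-oxidising alcohol dehydrogenase, were called higher than in basal cells with Igfbp3, though Fabp5 was 1146 CPM against 908 CPM for CpG ODN and 1090 CPM against 1111 CPM for LPS. Adh7 was 194 and 182 CPM against 141 and 149 CPM (log2 fold change 0.40, adjusted p = 0.0195). Against lower spinous cells 5 of the 8 were lower, against 11.3% of all genes.

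Of 18 oxidative stress and glycolysis genes, Ndrg1, a gene induced by low oxygen, was lower than in basal cells with Igfbp3, at 23.1 and 20.2 CPM against 34.2 and 78.5 CPM (log2 fold change -0.97, adjusted p = 0.00458). Against lower spinous cells 8 of the 18 were lower, the glycolytic genes Hk2, Aldoa, Pgk1, Eno1 and Ldha among them, and 3 were higher, against 11.3% and 11.5% of all genes. Hk2 was 30.0 and 29.4 CPM against 50.7 and 66.4 CPM (adjusted p = 1.06e-05). Slc7a11, a cystine transporter, was higher at 11.5 and 12.8 CPM against 2.28 and 0.922 CPM (adjusted p = 4.09e-06). Of 12 protease and inhibitor genes only Adamts1 was called between the basal groups, lower without Igfbp3 (adjusted p = 0.00458). Of 13 tested against lower spinous cells 4 were higher and 4 lower, against 11.5% and 11.3% of all genes. Ctsl, a lysosomal protease, was 129 and 189 CPM against 46.9 and 65.4 CPM (log2 fold change 1.39, adjusted p = 1.66e-19). Cdkn1a, the cell cycle inhibitor p21, was 31.9 and 31.2 CPM against 83.1 and 92.2 CPM (log2 fold change -1.51, adjusted p = 2.75e-14).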
